A study of Homo sapiens with 2 samples.

Results

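Genes of the Notch pathway were examined in cultures labelled LN229, an established human glioblastoma line: 4 ligand genes (JAG1, JAG2, DLL1 and DLL3), 3 receptor genes (NOTCH1, NOTCH2 and NOTCH3) and 3 target genes (HES1, HEY1 and NRARP). They are 10 of the 19775 genes named on the array. Every probe set annotated to exactly 1 of these symbols was taken, which gave 28 of 54675 probe sets, and 1 further probe set that listed a member together with another symbol was left out. Both cultures were grown in DMEM with fetal bovine serum. One held the plasmid pSUPER.neo-miR-127-3p, which overexpresses the microRNA miR-127-3p, and the control held pSUPER.neo alone. The labels do not say whether the cells were 1 clone or a pool. Total RNA of each culture was measured on 1 Affymetrix array, so every comparison has 1 sample per group, no replicate check and no p-value. The study asked which genes this microRNA regulates in a glioblastoma line.

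Notch signalling passes between touching cells. A ligand of the Jagged or Delta family on one cell binds a Notch receptor on its neighbour, ADAM proteases and then gamma-secretase cut the receptor, and the freed intracellular part enters the nucleus. There it joins the DNA-binding protein RBPJ and Mastermind co-activators and turns on target genes. HES1 and HEY1 encode repressors of the basic helix-loop-helix class, and NRARP encodes an ankyrin repeat protein that restrains the same nuclear complex. In the brain the pathway is known for keeping neural precursors undifferentiated, and it has been widely studied in glioma.

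Sequences are shown for the microRNA that was overexpressed and for the promoters of 2 target genes, 1 that holds the searched motifs and 1 that does not. They come from RefSeq tables of build GRCh38.p14. The seed of miR-127-3p, bases 2 to 8, is in capitals, and the mature sequence lies on the plus strand at chr14:100883035-100883056. The promoters are the 250 bases before the annotated start, 5′ to 3′ on the strand of the gene. HES1 is on the plus strand at chr3:194135898-194136147 and NRARP on the minus strand at chr9:137302272-137302521. Capitals in the promoters mark matches, on either strand, of GTGGGAA, a sequence bound by RBPJ, and of CACNAG, the N-box bound by HES repressors.
miR-127-3p: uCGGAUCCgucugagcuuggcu
HES1: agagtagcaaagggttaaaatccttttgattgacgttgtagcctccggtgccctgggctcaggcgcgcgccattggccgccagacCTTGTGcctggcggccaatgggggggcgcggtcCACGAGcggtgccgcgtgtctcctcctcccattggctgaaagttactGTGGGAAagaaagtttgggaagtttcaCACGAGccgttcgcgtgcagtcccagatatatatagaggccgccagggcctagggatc
NRARP: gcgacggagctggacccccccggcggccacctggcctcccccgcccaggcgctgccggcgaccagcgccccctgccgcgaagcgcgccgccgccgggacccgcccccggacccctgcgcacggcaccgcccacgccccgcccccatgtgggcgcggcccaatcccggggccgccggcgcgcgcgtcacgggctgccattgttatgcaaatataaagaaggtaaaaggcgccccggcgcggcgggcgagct

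The HES1 promoter held 1 match of GTGGGAA, starting 85 bases before the start of the gene, and 3 matches of CACNAG, starting 165, 132 and 58 bases before it. No matches overlapped, and the NRARP window held neither motif. Of the 7 member promoters in the table, HES1 alone held GTGGGAA, and HES1 and NOTCH3 held CACNAG. Promoters of DLL1, DLL3 and the target HEY1 were missing from it and were not searched. Among all 35116 promoters in the table, 5.43% held GTGGGAA and 32% held CACNAG in the same window. These are matches of letters and not measured binding.

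Median signals over all non-control probe sets were 83.3 arbitrary units for miR-127-3p and 93.9 for the control. A signal under the median of its array is called dim here, a working floor that says nothing about detection. A probe set was above the filter when its mean log2(signal + 1) over both arrays exceeded the median of that mean, a signal of about 83.0. Log2 ratios are miR-127-3p minus control on the log2(signal + 1) scale with the median over genes subtracted, and folds are taken from them, which understates the change of low genes. Of the 28 member probe sets, 16 were above the filter and 11 were dim on both arrays. Those above the filter covered 8 of the 10 genes. Over 5974 genes with more than 1 probe set above the filter, log2 ratios of probe sets varied around their gene's mean with a pooled SD of 0.44. This spread is within the arrays and holds no variation between cultures.

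The cell type markers set the arrays apart before any Notch gene is considered. The summed signal of 12 epithelial markers was 7783 with miR-127-3p against 86429 in the control, and 10 of the 12 were brighter in the control. KRT19, a keratin of simple epithelia, read 5.64 against 12674, and EPCAM, an epithelial adhesion molecule, read 30.2 against 9181. CDH1 was likewise dim with miR-127-3p and above the median in the control. KRT8 and KRT18 were above the median on both arrays but were also dimmer with miR-127-3p. KRT8 read 307 against 16926 and KRT18 read 6906 against 44863. For 9 intestinal epithelial markers the sums were 244 and 4349, with 8 brighter in the control and all 9 dim with miR-127-3p. VIL1, the brush border protein villin, read 45.4 against 1847, but the defining factors CDX1 and CDX2 were dim on both arrays. Of 10 glial and glioma markers 5 were brighter on each array, and their sums of 86393 and 80277 were carried by VIM and CD44. SLC1A3, a glial glutamate transporter, read 2689 against 73.9 and was at least 28.1-fold higher, while SOX2 read 1656 against 3893, NES read 893 against 1804, and GFAP and AQP4 were dim on both arrays. Sums over 3 immune and 5 endothelial markers stayed at or under 411, and the 6 fibroblast markers summed to 10691 and 9534. Whether both cultures held the same cell line was not tested, and neither was the part of these marker differences in the Notch values, so in each Notch ratio the microRNA and other differences between the cultures cannot be told apart. Fewer cells of a type and less RNA per cell cannot be told apart in bulk RNA. GAPDH and ACTB had log2 ratios of 0.02 and 0.05.

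Most Notch members were dimmer with miR-127-3p, and the ligand JAG2 and the target NRARP were the members past 2-fold. At the brightest probe set, 7 of 8 genes above the filter had ratios below 0, beside 50% of all genes, or 6 of 8 under the 3 scalings that put NOTCH3 just above 0. At least 2-fold lower were 2 of 8, beside 8.67% of all 11985 genes that passed the same filter. Both are dim with miR-127-3p and entered through their control signals, and among the 6 members above the median on both arrays 0 were at least 2-fold lower, beside 6.05% of such genes. None of the 8 was at least 2-fold higher, beside 5.06% of all genes. At least 1.5-fold lower were 5 of 8, namely JAG2, NRARP, HEY1, HES1 and NOTCH1, beside 18.1% of all genes, and none was at least 1.5-fold higher, beside 14.5%. The median log2 ratio was -0.71 over the 8 members and 0 over all genes by construction. Counts over 8 genes on a single pair of arrays describe these arrays only.

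**Figure D1:**
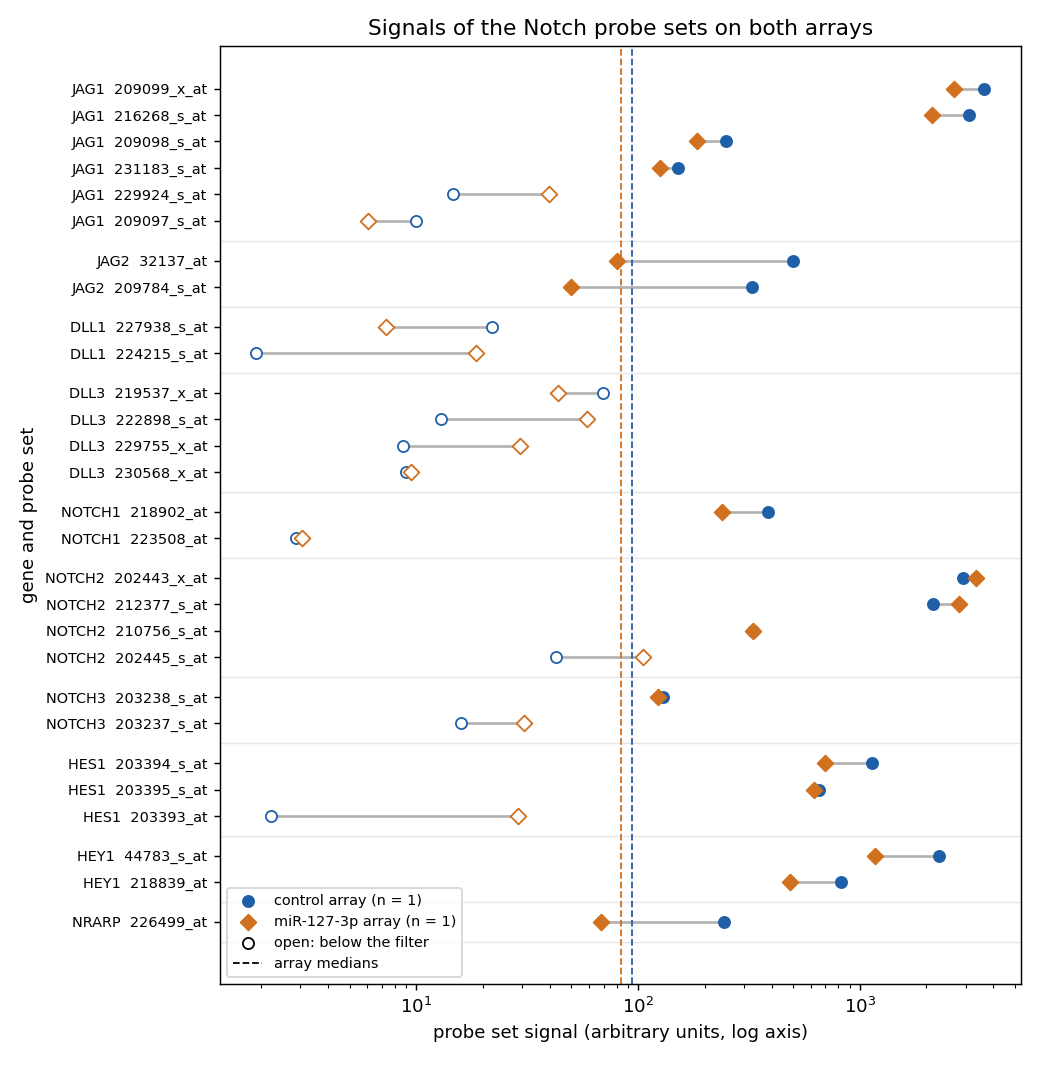
Signal of each of the 28 Notch probe sets on the control array (circles) and the miR-127-3p array (diamonds), on a log axis in arbitrary units, with dashed lines at the array medians of 93.9 and 83.3. Open symbols are below the filter. JAG2 and NRARP lie to the right of the medians in the control and to the left with miR-127-3p.

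JAG2, a ligand of the Jagged family, had the lowest ratio of the members. Its brighter probe set had a signal of 80.6 in the miR-127-3p culture against 498 in the control culture. Its other probe set read 49.8 against 325. Both were above the array median in the control and dim with miR-127-3p, so the differences are lower limits, at least 5.97-fold lower at the first and at least 3.90-fold lower at the second. As measured, the log2 ratios were -2.63 and -2.69, and with the dim signals set to the array median they were -2.58 and -1.96.

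JAG1, the other Jagged ligand, was measured by 6 probe sets and lay nearer to 0. Its brightest probe set read 2661 with miR-127-3p against 3638 in the control. The next read 2113 against 3125, and the other two above the filter read 184 against 248 and 125 against 152. All 4 were dimmer with miR-127-3p, with log2 ratios between -0.58 and -0.29, none of them past 1.5-fold. The remaining probe sets of JAG1 were dim on both arrays. At the brightest probe sets the ligands thus stood at -2.63 for JAG2 and -0.46 for JAG1, and the difference between them could not be tested.

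The Delta ligands were dim throughout. DLL1, an activating ligand, had 2 probe sets, which read 7.31 and 18.5 with miR-127-3p against 22.0 and 1.90 in the control. DLL3, a divergent Delta ligand that is found mainly inside the cell, had 4 probe sets. Their signals ran from 9.49 to 58.9 with miR-127-3p and from 8.67 to 69.4 in the control. No fold is given for either gene, since all their probe sets lay under the medians and pointed in both directions.

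The receptors, which receive the signal and carry it to the nucleus, stayed within 2-fold at the brightest probe set. NOTCH1 read 240 with miR-127-3p against 384 in the control, which is a log2 ratio of -0.69, and its other probe set read 3.04 against 2.87. The NOTCH1 value therefore rests on 1 probe set. NOTCH3 read 123 against 129 at its brighter probe set, a log2 ratio of -0.08, and 30.6 against 15.9 at the other, which was dim on both arrays. No direction is given for NOTCH3, because its ratio turned to 0.06 with quantile normalization.

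NOTCH2 alone among the members above the filter had a ratio above 0, and it stayed above 0 under all 11 alternatives that gave it a value. Its brightest probe set read 3354 with miR-127-3p against 2921 in the control, which is a log2 ratio of 0.19. The next read 2814 against 2149, a log2 ratio of 0.38, and another read 331 on both arrays. These ratios lie within the spread of 0.44 of 0. The last probe set was below the filter with 105 against 42.5, at least 1.11-fold higher against the control median. All 4 carry a suffix that marks probes shared between transcripts, and the genome holds partial near-identical copies of NOTCH2, so the share of NOTCH2 itself is uncertain. Every probe set of JAG1, DLL1, DLL3 and NOTCH3 carries such a suffix too. So do the HES1 sets above the filter, the brighter HEY1 set and the dimmer JAG2 set.

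**Figure D2:**
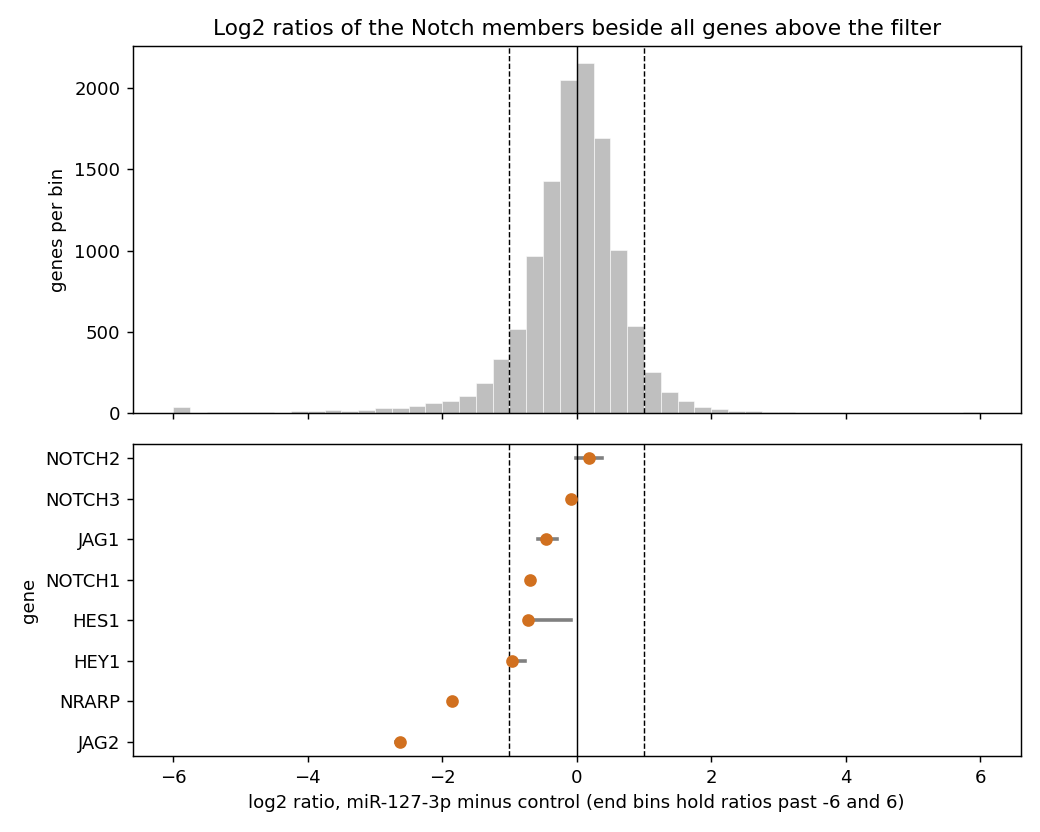
Upper panel, number of genes per bin of log2 ratio (miR-127-3p minus control) for all 11985 genes above the filter. Lower panel, the 8 Notch members above the filter, with a point at the brightest probe set and a grey line over all their probe sets above the filter. Dashed lines mark 2-fold. JAG2 at -2.63 and NRARP at -1.85 lie past the lower line and HEY1 at -0.96 lies next to it.

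The 3 target genes were dimmer with miR-127-3p at every probe set above the filter. NRARP, the feedback inhibitor of the nuclear complex, read 67.7 with miR-127-3p against 245 in the control at its only probe set. It was dim on the miR-127-3p array and at least 2.94-fold lower, with a log2 ratio of -1.85 as measured.

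HEY1, a repressor induced by Notch, read 1175 with miR-127-3p against 2272 in the control at its brighter probe set and 486 against 824 at the other. Both lay above the medians on both arrays, so these are measured differences and not limits, 1.95-fold lower with a log2 ratio of -0.96 and 1.71-fold lower with -0.77. The brighter probe set sat next to the 2-fold line and crossed it under 3 alternatives. Its log2 ratio was -1.002 after quantile normalization and also after removal of the loess trend, and it was -1.005 with the filter at the 75th percentile.

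HES1, the repressor often read as a sign of Notch activity, gave less agreement between probe sets. The brightest read 694 with miR-127-3p against 1140 in the control, which is a log2 ratio of -0.73, while the next read 624 against 654, a log2 ratio of -0.08. The gap of 0.65 between these probe sets of 1 gene is almost as large as the ratio itself. Another was dim on both arrays, with 28.7 against 2.22. With the mean of the probe sets above the filter, the HES1 ratio was -0.40.

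Counted over probe sets, 14 of the 16 above the filter had ratios below 0, beside 49.9% of all named probe sets above the filter. These 14 include values close to 0, with -0.01 at 1 NOTCH2 probe set and -0.08 at 1 probe set each of NOTCH3 and HES1. At least 2-fold lower were 3 of the 16, both JAG2 sets and NRARP, beside 8.08% of the same 22459 probe sets, and none was at least 2-fold higher, beside 5.28%. All 3 were dim with miR-127-3p and entered through their control signals. Among the 13 member probe sets above the median on both arrays, 0 were at least 2-fold lower. Of the 5 members with more than 1 probe set above the filter, JAG1, JAG2, HES1 and HEY1 had all of them below 0, a pattern met by 30.7% of all such genes, and none had all of them above 0, beside 30.6%. Probe sets of 1 gene share transcripts and are not replicates. Of the 12 member probe sets below the filter, 9 were brighter with miR-127-3p, but 11 of the 12 were dim on both arrays, where order has no meaning. Of the 6 members above the median on both arrays, 0 were at least 2-fold higher, beside 4.21% of such genes.

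By median and by sign the wider pathway did not lean to one side. Past 2-fold more of its genes were lower than higher, as among all genes, and at 1.5-fold both directions were equal in number. Of 67 other Notch pathway genes listed, 51 were above the filter. Of these 7 were at least 2-fold lower, 1 was at least 2-fold higher and 43 stayed within 2-fold, beside the shares of 8.67% and 5.06% of all genes. Their median log2 ratio was -0.01, with 26 below 0 and 25 above.

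Among further genes of the HES and HEY family, repressors like HES1 and HEY1, HES6 and HES4 were dimmer with miR-127-3p. Of 7 listed, 3 were above the filter and 2 of these were at least 2-fold lower, beside 8.67% of all genes. HES6, a family member that promotes neural differentiation and opposes HES1, read 323 with miR-127-3p against 1423 in the control, 4.43-fold lower. HES4 read 83.1 against 228 and was at least 2.73-fold lower. HES7, the segmentation clock repressor, was at -0.17. HEY2 was below the filter on its mean, but 1 of its probe sets read 5.80 against 201, at least 2.42-fold lower, and the other read 36.2 against 160, at least 1.92-fold lower. HEY2 was singled out after its values were seen. HES2, HES5 and HEYL were below the filter too. In the promoter windows of this list GTGGGAA was found for HES4, HES5, HEY2 and HEYL and not for HES2, HES6 or HES7.

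Among further ligands and receptors, 2 of 5 above the filter passed 2-fold, both of them lower, beside 8.67% of all genes. One of them, MFAP2, was dim with miR-127-3p and entered through its control signal. MFAP2, a microfibril protein that binds Notch ligands, read 55.1 with miR-127-3p against 676 in the control, so that it was at least 8.09-fold lower. CNTN1, a neural adhesion molecule described as a Notch ligand, read 783 against 1987, 2.56-fold lower, and its 3 probe sets above the filter ran from -1.39 to -1.33. DLK2 was at 0.68, NOTCH4 at -0.31 and DNER at -0.12. DLL4, DLK1 and MFAP5 were below the filter.

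The enzymes that mature and cut the receptors mostly stayed within 2-fold. Of 7 maturation genes 1 was lower, MFNG, a Fringe glycosyltransferase that tunes which ligands a receptor answers. It read 161 with miR-127-3p against 1078 in the control, 6.71-fold lower, and 31.7 against 310 at its next probe set, at least 3.72-fold lower. The related LFNG and RFNG were at 0.17 and 0.19, and in every alternative that gave them a value MFNG was below 0 and these genes above it. Of 7 cleavage genes above the filter, APH1B, a gamma-secretase subunit, was the 1 past 2-fold, with 920 against 377, 2.42-fold higher, though its second probe set was at 0.55. ADAM10, the protease of the first cut, was at 0.32 and ADAM17 at 0.03. Of the other gamma-secretase subunits, PSENEN was at 0.63, PSEN2 at 0.51, APH1A at -0.04 and NCSTN at -0.09, and the median of the 7 cleavage genes was 0.32.

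In the nucleus, RBPJ, the DNA-binding protein of the pathway, read 3665 with miR-127-3p against 6818 in the control at its brightest probe set, a log2 ratio of -0.91, and 1904 against 3184 at the next, a ratio of -0.75. MAML2, a Mastermind co-activator, read 845 against 1835 and was 2.19-fold lower, the 1 of 8 nuclear complex genes past 2-fold at the brightest probe set. MAML1 was at 0.04 and MAML3 at -0.07, both of which change sign under some scalings. The co-activator genes EP300 and CREBBP were at -0.18 and 0.33 at the brightest probe set. At their next probe sets they passed 2-fold in opposite directions, at -1.20 and 1.21. Of 8 co-repressor genes, TLE3, a Groucho partner of HES proteins, was the 1 past 2-fold at the brightest probe set. It read 238 against 878, 3.71-fold lower, with 4 probe sets between -1.89 and -1.06. Of its relatives, TLE2 was at -0.63, TLE4 at 0.77 and TLE1 at 0.75, each on the same side of 0 in every alternative that gave it a value. The probe sets of TLE4 differed, however, with 5 above the filter that ran from -0.42 to 1.73. None of 13 genes of ligand trafficking and receptor turnover passed 2-fold at the brightest probe set, with DTX4 at 0.97 and MIB1, which readies ligands for signalling, at -0.33. Dimmer probe sets above the filter passed it for NUMBL, at 1.28, and for MIB2 in both directions, at -1.07 and 1.01. The control signals of those higher values were dim. DTX4, a Deltex family gene, crossed 2-fold under 4 alternatives, with ratios from 1.01 to 1.09. Of the genes listed as repressed by HES factors, ATOH1, NEUROG2, NEUROG3 and DLL4 were dim on both arrays. DLL4 was also listed among the ligands.

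**Figure D3:**
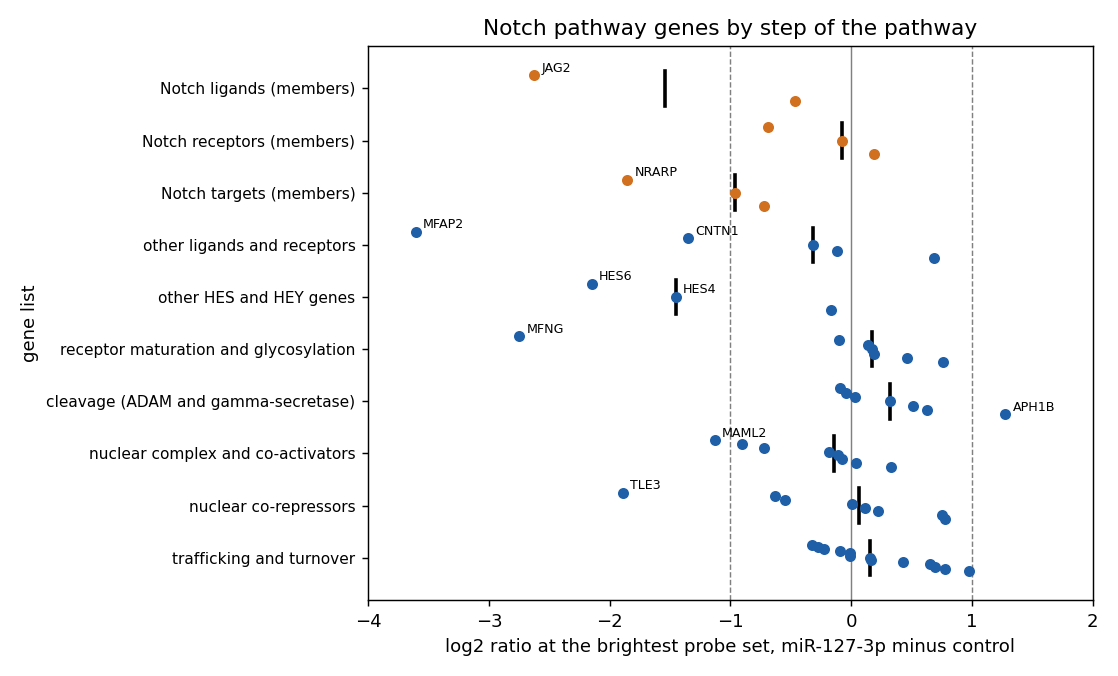
Log2 ratio (miR-127-3p minus control) at the brightest probe set of each gene above the filter, by step of the pathway, with members in orange, other pathway genes in blue, a black bar at each list's median and dashed lines at 2-fold. Genes past 2-fold are named. Of the other pathway genes 7 lie past the lower line and APH1B alone past the upper one.

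**Figure D4:**
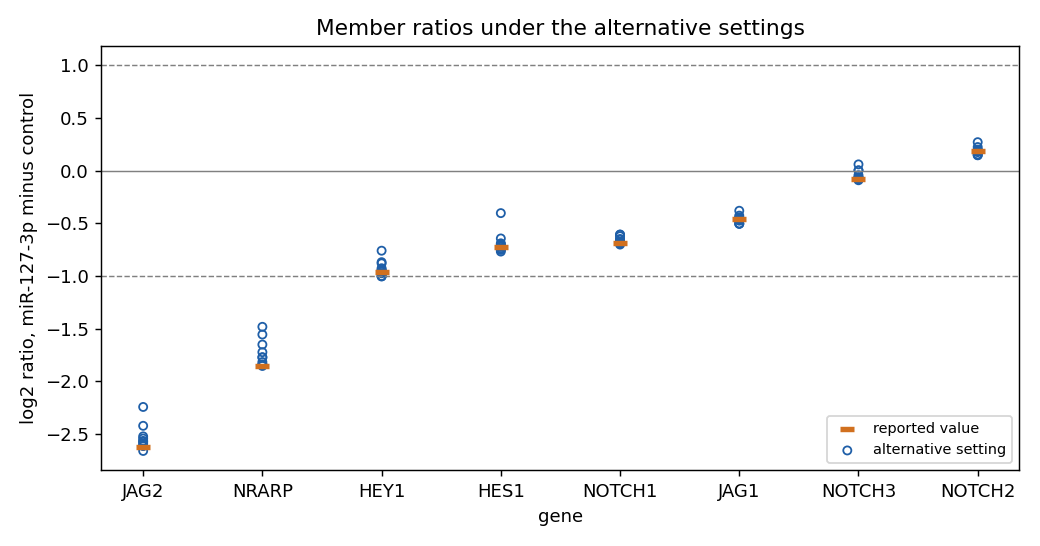
Log2 ratio (miR-127-3p minus control) of the 8 members above the filter as reported (orange bar) and under each alternative that gave a value (open circles), with lines at 0 and at 2-fold. JAG2 stays between -2.66 and -2.24 and NRARP between -1.85 and -1.48. HEY1 straddles the 2-fold line and NOTCH3 straddles 0.

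Under the alternative settings of scaling, filter, pseudocount and probe set choice, 7 of the 8 members above the filter kept their direction wherever they had a value, and NOTCH3 was the exception. JAG1 stayed between -0.51 and -0.38, NOTCH1 between -0.70 and -0.61, and HES1 between -0.77 and -0.40. The reported ratios of JAG1, NOTCH1 and HES1 differed from each other by less than the spread of 0.44, so no order among these genes is given.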

How the data were processed

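The authors deposited linear signal intensities per probe set for 2 arrays. How they were summarised is not stated here, and biotin-labelled cRNA was made with an Affymetrix 3′ kit, per the labels' protocols. Trimmed means (2% off each end) were 500.1 on both arrays. The platform annotation gave 1 symbol to 41091 of 54613 non-control probe sets, several to 1801 and none to 11721, and 99.9% of those with 1 were matched to RefSeq (GRCh38.p14) by Entrez identifier. The brightest probe set above the filter stood for its gene. The median log2 ratio subtracted was 0.01. A lower limit sets the dim signal to the median of its array.

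The number of arrays limits the precision, and without replicates no test was possible, so counts past a fixed fold stand beside the share of all genes. Members and lists were chosen with earlier results of these data known. Named genes were all members with all probe sets, up to 3 genes past 2-fold per direction of each pathway list or otherwise its extremes, leading markers, GAPDH and ACTB. Other list genes were named after their values were seen. Alternatives were uncentred values, quantile normalization, removal of a loess trend (span 0.3), 75th percentile scaling, pseudocounts of 16 and 32 in place of 1, no filter, filters at the 75th percentile or at both array medians, a floor at the median, the mean of probe sets, exclusion of probe sets with a cross-match suffix, and thresholds of 1.5-fold and 3-fold. A ratio counted as moved when it shifted past 0.44, the spread between probe sets. The procedure was tested on simulated arrays. Changes were planted there only in genes with a higher mean signal than JAG2 and NRARP, so signals as low as theirs were not tested. Protein sequences were not used here. Python 3.11.15, numpy 2.4.6, pandas 2.3.3, statsmodels 0.14.6 and matplotlib 3.10.9 were used.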

Additional observations from a re-analysis of the deposited data

How the results depend on the processing

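The count of members at least 2-fold lower, 2 as reported, was 1 with the filter at the 75th percentile, where 4 members entered and HEY1 was the 1, 0 with the filter at both array medians, and 5 at 1.5-fold. It was 3 with quantile normalization or the loess trend removed, where HEY1 joined, and 3 without a filter, where DLL1 joined with signals dim on both arrays. Member probe sets at least 2-fold lower, 3 as reported, numbered 1 with the filter at the 75th percentile, 0 with that at both medians and 7 at 1.5-fold, and 6 were at least 2-fold higher without a filter, where all 28 entered. The median ratio of members, -0.71, was -1.30 when probe sets with a cross-match suffix were excluded, which left 4 members. Of other pathway genes, 7 lower became 11 without a filter, 3 with the filter at the 75th percentile, 5 with that at both medians and 4 at 3-fold. At 1.5-fold RBPJ, KAT2B and TLE2 joined the 7, and lower genes were then as many as higher ones. The 1 higher became 2 with quantile normalization, the loess trend removed or 75th percentile scaling, where DTX4 joined, 3 without a filter, 10 at 1.5-fold, and 0 at 3-fold or with suffixed probe sets excluded. APH1B had a ratio of 0.56 under that last setting. The median of the other pathway genes lay between -0.03 and 0.07 and kept its sign in 8 of 12 alternatives. None of the 8 member ratios moved by more than the spread between probe sets under the alternatives that gave a value. No paired analysis was possible because each group has 1 array. Signals under the array median leave JAG2, NRARP, HES4, MFAP2 and HEY2 with lower limits only.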
